A study of Mus musculus with 12 samples.

Results

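Adding the PARP inhibitor olaparib to the STING agonist ADU-S100 was examined in BRCA-deficient mouse breast tumors by comparing the 3 tumors titled Olaparib+ADUS100, called the combination here, with the 3 titled ADUS100. These were 6 of the 12 tumors profiled, the rest being 3 Vehicle and 3 Olaparib tumors, and 689 of the 750 genes in the table reached 20 in 3 or more of the 12 tumors and were tested. All tumors descended from the model given as K14-Cre;Brcaf/fTrp53f/f in the labels and as K14-Cre-Brca1f/f;Trp53f/f in the study's methods, in which the K14 promoter drives Cre in epithelium, and grew from tumor pieces placed in the mammary fat pad of FVB/129P2 female hosts, which keep their own immune system. Combination mice received olaparib at 50 mg/kg by intraperitoneal injection each day for 3 days plus 50 μg ADU-S100 in 40 μl into the tumor on the first day, ADU-S100 mice received the same tumor injection with intraperitoneal DMSO, Olaparib mice received olaparib with saline into the tumor, and Vehicle mice received DMSO and saline. Tumors were taken at 3 days, and 100 ng RNA of a snap-frozen piece was counted with the nCounter mouse PanCancer Immune panel, which reads molecules hybridised to colour-coded probes without amplification. The labels identify each value with a separate tumor, and mouse ages are not given in the sources used here.

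PARP enzymes signal DNA breaks, and their inhibition leaves cells without BRCA function with unrepaired DNA. DNA that reaches the cytosol is sensed by cGAS, whose cyclic dinucleotide product activates STING, and ADU-S100 is a synthetic cyclic dinucleotide that activates STING directly. STING signals through the kinases TBK1 and IKK-epsilon to type I interferon, and interferon receptors signal through the kinases JAK1 and TYK2 to interferon-stimulated genes. MHC class II molecules show peptides to CD4 T cells and are carried mainly by dendritic cells, macrophages and B cells, although interferon gamma can also induce them in epithelial cells. In bulk tumor RNA, more cells of a type and more RNA per cell cannot be told apart.

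Depth differed between the groups. Total counts before scaling were 372390, 408939 and 683982 in ADU-S100 tumors 1506, 1512 and 1513, and 1491854, 1366063 and 1339258 in combination tumors 1251, 1270 and 1539. These counts were inferred from the even spacing of the deposited values, which are whole multiples of 1 factor a tumor, and in 7 of the 12 tumors no gene lay at exactly 1 multiple. The factor was 2.85, 1.96 and 1.43 in the ADU-S100 tumors and 0.810, 0.824 and 0.820 in the combination tumors. The median of the 30 lowest genes was 5 to 6.5 counts in the ADU-S100 tumors and 6 to 7 in the combination tumors before scaling, but 9.27 to 17.1 against 4.86 to 5.77 after it. The groups therefore did not overlap in total, in factor or in the scaled level of the lowest genes. Olaparib tumor 1517, which enters the spread shared by all groups, was the shallowest of the 12, with 106206 counts and a factor of 10.5. The median of its lowest genes was 31.4 after scaling. Combination tumors 1251 and 1270 share the number series 12 with 1 Vehicle tumor, whereas all 3 ADU-S100 tumors are in series 15. What the series stands for is not stated. Alternative fits that take the series into account are given below, and whether it caused any difference was not tested.

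**Figure D1:**
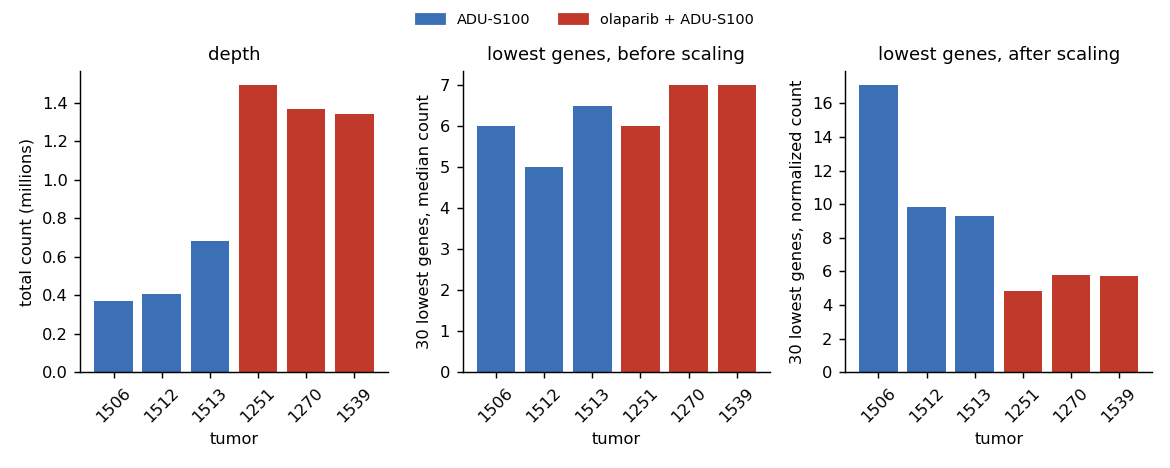
Bars give, for each of the 3 ADU-S100 and 3 combination tumors, the total count before scaling and the median of the 30 lowest genes as counts before scaling and as normalized counts after it. The 3 ADU-S100 tumors lie between 372390 and 683982 counts and the 3 combination tumors between 1339258 and 1491854, and the lowest genes separate only after scaling.

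Per-tumor values below are normalized counts in the order 1506, 1512 and 1513 for ADU-S100 and 1251, 1270 and 1539 for the combination, differences are combination minus ADU-S100 on the log2(normalized count + 1) scale with the SE of limma's fit, and means are ± SD with n = 3. No gene passed limma's adjusted p of 0.05 (0% of 689). At limma's unadjusted p of 0.05, 31 genes were higher in the combination (4.5%) and 32 were lower (4.64%), together 9.14% of the genes tested. The values of the groups did not overlap for 72 genes that were higher (10.4%) and for 144 that were lower (20.9%), together 31.3%. By mean log2 value, 278 genes were higher (40.3%) and 411 lower (59.7%). The median difference over all genes was -0.22, and each group of genes below is read against that shift. Scaling each tumor to its median brought this shift to -0.03 and turned the genes without overlap into 112 higher and 105 lower, so that the higher share went from 33.3% to 51.6%. Without ADU-S100 tumor 1506, the shallowest of the 6, the median was 0.03, 67 genes were higher, 9 were lower and only H2-Aa passed the adjusted threshold. Leaving out any other of the 6 tumors gave 13 to 20 higher and 12 to 40 lower genes, with 0 passing the adjusted threshold. All 31 higher and all 32 lower genes kept their sign after median scaling, where 30 of each still passed. With the tumor number series as a block they also kept their sign, but only 9 passed as higher and 2 as lower. The median over all genes was then -0.08.

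The smallest p-values among the higher genes belonged to the MHC class II pathway. The class II molecule I-A is built from an alpha chain, the product of H2-Aa, and a beta chain, the product of H2-Ab1, Cd74 encodes the invariant chain that guides class II molecules to endosomes, and H2-DMa and H2-DMb2 encode subunits of the H2-M peptide exchange factor. Class II promoters carry a Y box, the site of the factor NF-Y, and interferon-stimulated promoters carry the element ISRE, bound by IRF proteins. The 200 bases upstream of the RefSeq start (GRCm38.p6, gene strand, 5′ to 3′) are shown for 2 class II genes with the Y box letters CTGATTGG in capitals, and for 2 interferon-stimulated genes with the core letters of the ISRE in capitals, TTTC repeated after a gap of 2 bases. H2-Aa lies at chr17:34287824-34288023 on the minus strand, H2-Eb1 at chr17:34305667-34305866, Ifit1 at chr19:34640689-34640888 and Gbp2b at chr3:142594647-142594846, the last 3 on the plus strand.
H2-Aa: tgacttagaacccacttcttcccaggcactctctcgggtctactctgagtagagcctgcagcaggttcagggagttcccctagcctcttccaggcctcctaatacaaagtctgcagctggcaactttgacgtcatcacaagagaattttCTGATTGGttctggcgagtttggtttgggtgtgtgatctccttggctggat
H2-Eb1: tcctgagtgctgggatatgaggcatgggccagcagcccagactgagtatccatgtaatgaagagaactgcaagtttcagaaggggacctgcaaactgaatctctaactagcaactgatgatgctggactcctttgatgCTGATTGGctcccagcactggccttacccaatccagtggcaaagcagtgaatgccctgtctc
Ifit1: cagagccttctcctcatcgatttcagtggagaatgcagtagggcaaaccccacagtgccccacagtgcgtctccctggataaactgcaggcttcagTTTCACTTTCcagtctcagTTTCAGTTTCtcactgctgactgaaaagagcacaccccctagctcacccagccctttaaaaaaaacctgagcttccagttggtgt
Gbp2b: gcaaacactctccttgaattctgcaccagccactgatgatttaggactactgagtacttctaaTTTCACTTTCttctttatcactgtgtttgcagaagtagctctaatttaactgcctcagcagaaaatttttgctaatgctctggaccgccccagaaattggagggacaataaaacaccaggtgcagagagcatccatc
The Y box begins 51 bases before the start of H2-Aa and 62 bases before that of H2-Eb1. The ISRE letters begin 104 and 85 bases before the start of Ifit1 and 137 bases before that of Gbp2b. Searched on both strands (CTGATTGG or CCAATCAG for the Y box, TTTC or GAAA repeated after a gap of 2 bases for the ISRE; each gene shown holds matches of 1 of the 2 motifs in capitals), the Y box was in 3.54% of 32851 RefSeq promoters of this length and in 2 of the 7 class II genes that matched, and the ISRE letters were in 2.27% of all and in 11 of the 26 interferon-stimulated genes that matched. Of the higher genes with a promoter, 1 of 24 held the Y box (H2-Aa), and of the lower genes 1 of 23 (Aire). The ISRE letters were in 5 of 24 higher genes (Cybb, Gbp2b, Ifit1, Irgm2 and Socs1), and in 3 of 23 lower genes (Eomes, Ifna4 and Il19). Genes on 1 chromosome were left out of these gene groups but not out of the 32851 promoters. A gene counted if any of its promoters held the letters, so shares of genes and of promoters are unlike measures. A match describes the letters in the window and not the use of a site.

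H2-Aa was at 4683, 1770 and 1789 in the ADU-S100 tumors and at 15231, 18905 and 14123 in the combination tumors. Every combination tumor lay above every ADU-S100 tumor, and also above the Vehicle tumors at 3474 to 6164 and the Olaparib tumors at 3385 to 5796. The mean was 2747 ± 1676 with ADU-S100 and 16086 ± 2503 in the combination, a difference of 2.70 (SE 0.46) or 6.49-fold, with a limma adjusted p of 0.0624. Its limma adjusted p was 0.0109 without tumor 1506, 0.479 without tumor 1512, 0.470 without tumor 1270 and 0.835 with the tumor number series as a block. Cd74 was at 8246, 3307 and 3006 with ADU-S100 and at 21484, 49444 and 19764 in the combination, a difference of 2.67 (SE 0.56; limma adjusted p = 0.132). Tumor 1270 held the highest Cd74 value by a wide margin, but the other 2 combination tumors were also above all 3 ADU-S100 tumors.

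H2-Ab1 was at 5096, 1837 and 1347 with ADU-S100 and at 8758, 9775 and 8812 in the combination, a difference of 1.97 (SE 0.54). H2-DMb2 was at 65.5, 37.3 and 79.9 with ADU-S100 and at 190, 261 and 203 in the combination, a difference of 1.88 (SE 0.39; limma adjusted p = 0.132). Its partner H2-DMa was at 570, 191 and 280 with ADU-S100 and at 695, 1401 and 697 in the combination, a difference of 1.49 (SE 0.48). The groups of all 3 genes were apart, and for H2-DMa the nearest tumors, 1506 and 1251, were close. H2-Eb1, the beta chain of the class II molecule I-E, was at 718 to 2461 with ADU-S100 and at 2846 to 3990 in the combination, without overlap but with a limma unadjusted p of 0.0575.

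Of the 11 class II presentation genes tested, 10 had a higher mean log2 value in the combination, 5 passed the unadjusted threshold as higher and 0 as lower, and the median difference was 1.48. Without tumor 1506, 9 passed as higher and the median was 1.92. The transactivator Ciita, which switches on class II genes, was at 259, 96.3 and 113 with ADU-S100 and at 213, 354 and 225 in the combination, a difference of 0.86 (SE 0.56) in which tumor 1506 overlapped the combination. Ctss, the cathepsin that trims the invariant chain, differed by 1.04 (SE 0.55) and H2-DMb1 by 0.77 (SE 0.51), also with overlap. At the other end of the list were H2-Ea-ps at 0.31 (SE 0.69) and H2-Ob, a subunit of the H2-O inhibitor of peptide exchange, at -0.67 (SE 0.67).

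**Figure D2:**
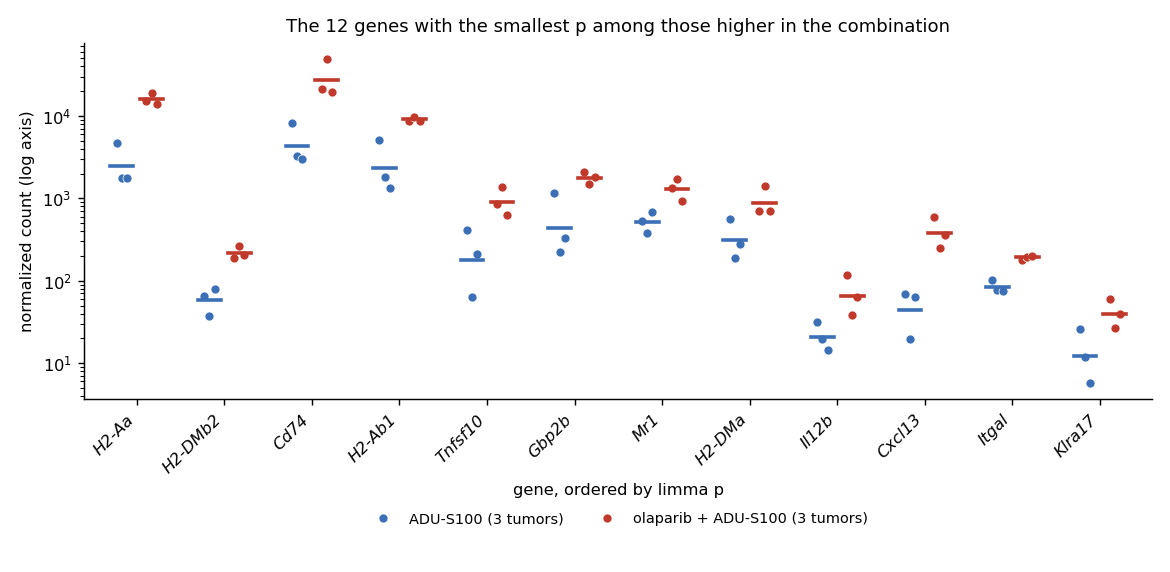
Normalized counts (log axis) of the 12 genes with the smallest limma p among those higher in the combination, in 3 ADU-S100 and 3 combination tumors. Points are tumors and bars are group means of log2(normalized count + 1) turned back to counts; no gene shows overlap, and for H2-Aa the ADU-S100 tumors reach 4683 while the combination tumors start at 14123.

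Class I presentation differed less. H2-K1, a classical class I heavy chain, was at 19352, 11059 and 12664 with ADU-S100 and at 37376, 46161 and 35476 in the combination, a difference of 1.50 (SE 0.64; limma adjusted p = 0.492). H2-D1, the other classical heavy chain measured, was at 15309 to 27922 with ADU-S100 and at 35711 to 45854 in the combination, a difference of 1.04 (SE 0.49; limma unadjusted p = 0.0549). Neither set of tumors overlapped, although Vehicle tumors spanned 6941 to 46028 for H2-K1. H2-Q1, a class Ib gene, was lower, at 48.4, 23.6 and 14.3 with ADU-S100 and 5.67, 1.65 and 6.56 in the combination, which before scaling was 17, 12 and 10 counts against 7, 2 and 8. H2-Q2, its neighbour in the family, was at 20 to 114 against 8.1 to 16.5, and the values of genes as alike as these are uncertain. Of 15 class I genes tested, 10 had higher and 5 lower values, 1 passed in each direction and the median difference was 0.53. Without tumor 1506, 3 passed as higher and 0 as lower, H2-Q1 among those lost, and the median was 0.85.

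Mr1, which presents microbial vitamin metabolites to MAIT cells, was at 530, 385 and 678 with ADU-S100 and at 1342, 1699 and 926 in the combination, a difference of 1.31 (SE 0.42). No tumor overlapped. The lipid-presenting genes of the same kind had other values: Cd1d1 differed by -0.30 (SE 1.03) and Cd1d2 by -1.40 (SE 0.70), and neither passed. Without tumor 1506 the Cd1d1 difference was 0.30.

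Interferon-stimulated genes had mostly higher values. Of 33 tested, 30 had a higher mean log2 value in the combination, 6 passed the unadjusted threshold as higher and 0 as lower, and the median difference was 0.86. Without tumor 1506, 18 passed and the median was 1.47. The groups did not overlap for 6 of the 33. The summed normalized count of the list was 32300 to 84399 in the ADU-S100 tumors and 74056 to 80142 in the combination tumors. By that sum the highest ADU-S100 tumor lay above every combination tumor. Ifit1, which binds foreign RNA, was at 946, 208 and 300 with ADU-S100 and at 2485, 1489 and 1599 in the combination, a difference of 2.21 (SE 0.94). Gbp2b, a guanylate-binding GTPase, was at 1168, 224 and 328 with ADU-S100 and at 2069, 1513 and 1812 in the combination, a difference of 2.01 (SE 0.60). Both genes were lowest in ADU-S100 tumors 1512 and 1513 and intermediate in 1506.

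Ifi44 showed the same order, at 5218, 731 and 1511 with ADU-S100 and 7587, 6501 and 6984 in the combination, a difference of 1.97 (SE 0.78). In each combination tumor Ifi44 was above all 3 ADU-S100 tumors. Ifi35 differed by 1.05 (SE 0.44) and Socs1, the feedback inhibitor of JAK kinases, by 0.99 (SE 0.42). Irgm2, an interferon-inducible GTPase outside that list, was at 396, 110 and 123 against 562, 674 and 463, a difference of 1.67 (SE 0.64). The lowest members of the list were Ifitm1 at -1.02 (SE 0.91) and Isg20 at -0.34 (SE 0.38), and neither passed.

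Of 11 interferon and interferon receptor genes tested, 4 had higher and 7 lower values, near the 59.7% lower over all genes, 0 passed as higher and 2 as lower. Their median difference of -0.83 was -0.44 without tumor 1506, -0.44 with the level of the lowest genes subtracted, and 0.14 with the log2 scaling factor as a covariate, and 5 of the 11 had mean counts under 20. Neither of the lower genes passed without tumor 1506. Ifna4, an interferon alpha gene, was at 25.6, 33.4 and 25.7 with ADU-S100 and 11.3, 6.6 and 13.1 in the combination, but its counts before scaling were 9, 17 and 18 against 14, 8 and 16 and overlapped. Tyk2, a kinase of the type I interferon receptor, was at 1575, 1183 and 788 with ADU-S100 and at 264, 297 and 301 in the combination, a difference of -1.98 (SE 0.77). Its 553, 602 and 552 counts with ADU-S100 were above the 326, 360 and 367 in the combination before any scaling. Jak2 at 0.52 (SE 0.66) and the receptor chain Ifnar2 at 0.35 (SE 0.49) had the highest differences of the list.

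Among 16 genes of STING signalling and nucleic acid sensing, 10 had higher and 6 lower values, 0 passed as higher and 1 as lower, and the median was 0.35. Without tumor 1506, 3 passed as higher and 0 as lower, and the median was 0.63. The gene that passed was Ikbke, which encodes IKK-epsilon, at 1598, 1409 and 534 with ADU-S100 and at 350, 406 and 385 in the combination, a difference of -1.48 (SE 0.63). The STING gene itself, Tmem173, was at 437 to 667 with ADU-S100 and at 569 to 916 in the combination, which overlapped. Irf7 at 1.47 (SE 0.90) and Tlr9 at 0.97 (SE 0.59) were at the upper end and Tlr8 at -0.66 (SE 0.63) at the lower end, and none of them passed. Ikbke was also the 1 gene that passed among 15 NF-kB subunits and regulators, of which 10 had higher and 5 lower values with a median of 0.13.

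Several immune ligands and cytokines were higher. Cxcl13, the chemokine that draws CXCR5-bearing B and T cells, had the largest difference of the 31 higher genes, at 68.4, 19.6 and 64.2 with ADU-S100 and 593, 249 and 357 in the combination, 3.05 (SE 1.02) or 8.29-fold. The Vehicle tumors ranged from 15.2 to 302 and the Olaparib tumors from 52.4 to 364. With the tumor number series as a block Cxcl13 differed by 1.85, below the 2.61 of H2-Aa and the 2.50 of Cd74. Tnfsf10, the death ligand TRAIL, was at 419, 62.9 and 211 with ADU-S100 and at 855, 1388 and 624 in the combination, a difference of 2.34 (SE 0.69). Il12b, the p40 subunit of interleukin-12, was at 31.3, 19.6 and 14.3 with ADU-S100 and at 116, 37.9 and 63.1 in the combination, a difference of 1.61 (SE 0.53). No tumor overlapped for any of the 3 genes.

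Of 30 TNF superfamily genes, 12 had higher and 18 lower values, 3 passed as higher and 0 as lower, and the median was -0.28, or 0.11 without tumor 1506. Besides Tnfsf10 the 3 were Ltb, a lymphotoxin subunit, at 94, 58.9 and 20 against 122, 157 and 112, and Cd40, the costimulatory receptor of antigen-presenting cells, at 51.3, 39.3 and 18.5 against 68, 70.1 and 95.9. Of 34 chemokines, 13 had higher and 21 lower values, with 3 passing in each direction and a median of -0.33. Without tumor 1506 they were 17 higher and 16 lower with 7 passing as higher and 1 as lower, and the median was 0.06. The higher 3 were Cxcl13, Xcl1, the ligand of the XCR1 receptor of cross-presenting dendritic cells, at 65.5, 23.6 and 18.5 against 97.2, 181 and 72.1, and Ccl22, a dendritic cell chemokine, at 48.4, 33.4 and 22.8 against 64.8, 70.9 and 90.2. The 15 chemokine receptors had a median of -0.10, or 0.14 without tumor 1506 and 0.09 with median scaling, and none passed.

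Markers of the cell types that the tumor piece could hold were mixed. Ptprc, the pan-leukocyte antigen CD45, was at 1003, 485 and 287 with ADU-S100 and 390, 423 and 422 in the combination, and of 11 general leukocyte genes 3 had higher and 8 lower values with a median of -0.16, which turned to 9 higher, 2 lower and 0.26 without tumor 1506 and to a median of 0.05 with median scaling. Of 19 T cell genes, 12 had higher and 7 lower values and 2 passed as higher, with a median of 0.21. The median was -0.22 within number series 15, 0.75 with the level of the lowest genes subtracted and 0.91 with the log2 scaling factor as a covariate, and without tumor 1506 it was 0.48 with 14 higher, 3 lower and 5 passing as higher. The 2 that passed with all tumors were Cd4, at 108, 39.3 and 30 against 112, 129 and 107, and Cd3g, at 65.5, 27.5 and 22.8 against 60.8, 109 and 66.4. In both, tumor 1506 lay above the lowest combination tumor, so the groups overlapped. Cd8a was low and also overlapped, at 14.3 to 21.6 against 14.8 to 35.5. Cd5 at 1.44 (SE 0.66) and Cd3e at 1.26 (SE 0.64) had the highest values of the list and Cd28 at -1.31 (SE 0.64) and Cd27 at -1.04 (SE 0.79) the lowest, and none of these 4 passed.

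Other lymphocyte genes that passed as higher were Itgal, the LFA-1 alpha chain, at 103, 76.6 and 74.2 against 178, 196 and 203, and Il2ra, the interleukin-2 receptor alpha chain, at 51.3, 49.1 and 37.1 against 162, 88.2 and 87.7. Of 24 cytotoxic and natural killer cell genes, 5 had higher and 19 lower values, 2 passed as higher and 1 as lower, the median was -0.74, and 13 of them had mean counts under 20. Without tumor 1506, 18 were tested, 8 had higher and 10 lower values, 0 passed as lower and the median was -0.30, and with the log2 scaling factor as a covariate it was 0.30. Klra17, a lectin-like receptor, was at 25.6, 11.8 and 5.71 against 60.8, 26.4 and 39.4, with 9, 6 and 4 counts before scaling with ADU-S100. Eomes, a transcription factor of cytotoxic lymphocytes, was at 57, 29.5 and 28.5 against 12.2, 14.8 and 17.2, although its counts of 20, 15 and 20 against 15, 18 and 21 overlapped before scaling. Xcl1 was the other gene that passed as higher, and the lectin-like receptor genes Klrb1c at -1.81 (SE 0.88) and Klrb1 at -1.50 (SE 0.72) were the lowest.

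Dendritic cell genes had higher values in 13 of 15, with 3 passing as higher, 0 as lower and a median of 0.34 that was 0.58 without tumor 1506 and 0.89 with the log2 scaling factor as a covariate. Besides Cd40 and Ccl22 the third was Itgax, which encodes CD11c, at 105, 104 and 72.8 against 222, 145 and 180. The lowest were Xcr1 at -1.30 (SE 0.80) and Lamp3 at -1.02 (SE 0.67). Macrophage and monocyte genes had 12 higher and 21 lower of 33 and a median of -0.17, which turned to 21 higher, 12 lower and 0.19 without tumor 1506 and to a median of 0.03 with median scaling. Clec7a, the beta-glucan receptor Dectin-1, was at 88.3, 64.8 and 28.5 against 131, 151 and 107, and Cybb, the oxidase subunit of phagocytes, at 641, 326 and 325 against 945, 904 and 917. Csf1r, the receptor that defines macrophages, was at 1675, 1283 and 839 against 1171, 1164 and 1213, which overlapped.

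The genes that passed as lower in the combination were spread over all classes of count. Taking the mean over the 6 tumors of the count before scaling, 10 of the 32 lower genes had fewer than 20 counts, 9 had 20 to 100, 7 had 100 to 500 and 6 had over 500, so that 13 of 32 had at least 100. With the tumor number series as a block, 2 genes were lower and 0 of them had at least 100 counts, against 9 higher, and within series 15 these numbers were 6, 2 and 4. Low-count genes were nevertheless the class with the higher share, since 11.8% of the 85 genes under 20 counts were lower and 0 were higher, whereas 2.53% of the 237 genes over 500 counts were lower and 5.91% were higher. The median difference went from -0.89 under 20 counts through -0.30 and -0.21 to 0.09 over 500. Without tumor 1506 the 4 medians were -0.59, 0.04, 0.13 and 0.14, so that both middle classes changed sign, and with median scaling they were -0.70, -0.10, -0.00 and 0.30. Of the 61 genes that the filter on low values left out, 26 were lower without overlap and 0 were higher. The scaled level of the lowest genes, described above, moved with this pattern. With that level subtracted from each tumor the 4 medians were -0.72, -0.11, -0.18 and 0.10. Whether that level is the cause was not tested.

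**Figure D3:**
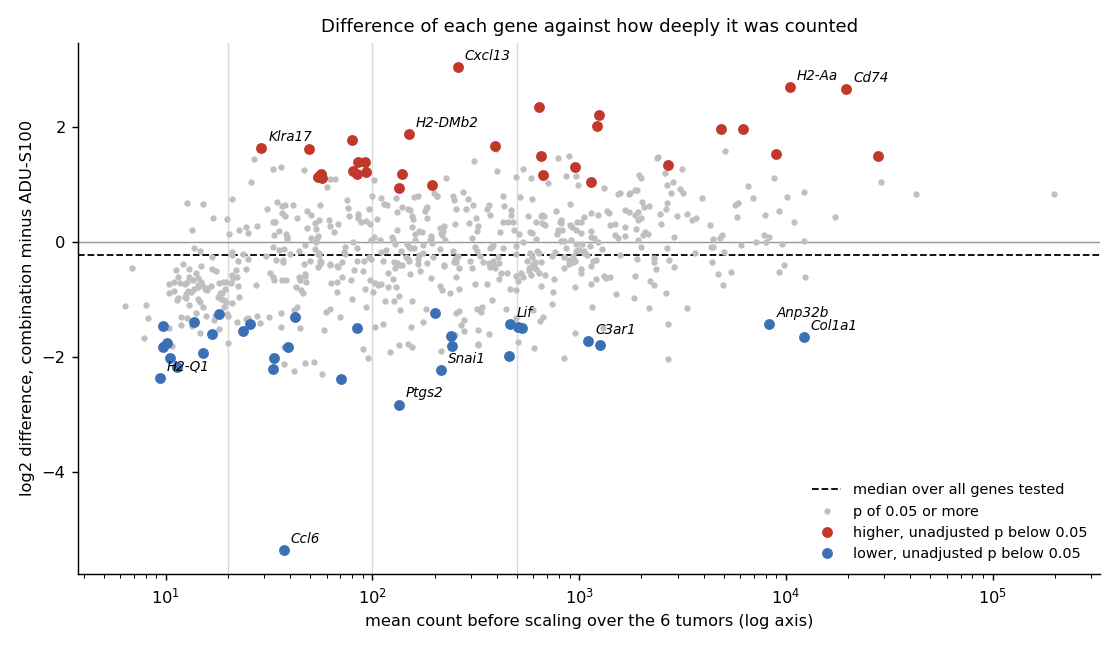
Difference combination minus ADU-S100 on the log2(normalized count + 1) scale of each of the 689 genes against its mean count before scaling (log axis). The median lies furthest below 0 in the class under 20 counts, at -0.89, while genes lower at limma's unadjusted p of 0.05 occur in every class.

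Before scaling, 31 of the 32 lower genes had more counts in the shallower ADU-S100 tumors than in the combination, including 12 of the 13 with at least 100 counts. Cklf, a chemokine-like factor named here after its values were seen, was the exception, with 181, 199 and 211 counts against 199, 195 and 216 that became 516, 391 and 301 against 161, 161 and 177 after scaling. With the level of the lowest genes subtracted from each tumor, 26 of the 32 still passed as lower, 7 under 20 counts, 8 at 20 to 100, 6 at 100 to 500 and 5 over 500. Without tumor 1506, 29 of the 32 were tested and 8 passed, 1, 3, 2 and 2 in the same classes. All 29 kept their sign.

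Of the well-counted lower genes, Ptgs2, the inducible cyclooxygenase COX-2, was at 424, 493 and 238 with ADU-S100 and at 85.1, 16.5 and 91 in the combination, a difference of -2.83 (SE 0.91; limma adjusted p = 0.492). With the tumor number series as a block the Ptgs2 difference was -1.41. Lif, an interleukin-6 family cytokine, was at 795, 1466 and 626 against 441, 204 and 414, a difference of -1.43 (SE 0.46). Ccl7, a monocyte chemokine, was at 1151, 477 and 320 against 196, 143 and 142, a difference of -1.82 (SE 0.65). In each of the 3 the groups were apart, and Vehicle tumors lay between 30.7 and 303 for Ptgs2, 321 and 470 for Lif and 66.2 and 401 for Ccl7.

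C3ar1, the receptor of complement fragment C3a, was at 6030, 2224 and 1044 with ADU-S100 and 799, 661 and 726 in the combination, a difference of -1.73 (SE 0.64). Trem2, a lipid receptor of tumor macrophages, was at 1119, 485 and 264 against 187, 150 and 167, a difference of -1.64 (SE 0.69). Mrc1, the mannose receptor, had the next lowest value of the macrophage list, -1.62 (SE 1.16), without passing. For these 3 genes tumor 1506 was 2 or more times any other tumor of the 6, and without it the differences were -1.07, -1.09 and -1.02, and none passed.

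Snai1, a transcription factor that represses epithelial genes, was at 1051, 434 and 372 with ADU-S100 and 112, 95.6 and 150 in the combination, a difference of -2.23 (SE 0.81). Plaur, the urokinase receptor, was at 1023, 1576 and 709 against 622, 192 and 424, a difference of -1.50 (SE 0.59). Col1a1, a chain of type I collagen, was at 33138, 29769 and 18999 against 7010, 6242 and 13797, a difference of -1.65 (SE 0.74). Col1a1 was far from the low end of the table, with 7571 or more counts before scaling in each of the 6 tumors. Among the Vehicle tumors it spanned 7802, in tumor 1269 of number series 12, to 44394.

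Anp32b, a histone chaperone of the acidic nuclear phosphoprotein family, was at 17811, 22152 and 12416 with ADU-S100 and 5760, 5482 and 8005 in the combination, a difference of -1.43 (SE 0.46). Cd99, a surface glycoprotein of leukocyte migration, was at 2253, 3755 and 2585 against 762, 599 and 1138, a difference of -1.80 (SE 0.71). With Tyk2, Ikbke and Cklf, given above, these complete the lower genes of at least 100 counts.

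**Figure D4:**
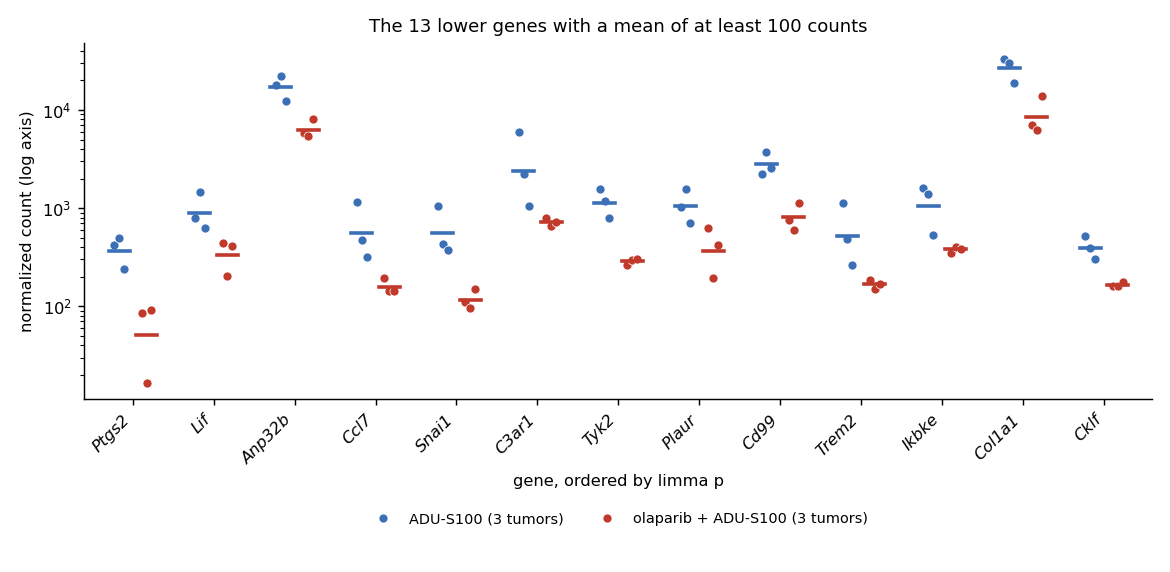
Normalized counts (log axis) of the genes lower in the combination whose mean count before scaling was at least 100, in 3 ADU-S100 and 3 combination tumors. Points are tumors and bars are group means of log2(normalized count + 1) turned back to counts; all genes shown are without overlap, and for Tyk2 the ADU-S100 tumors start at 788 while the combination tumors end at 301.

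Of the lower genes with fewer counts, Ccl6, a myeloid chemokine, had the largest difference, at 390, 41.3 and 85.6 with ADU-S100 and 1, 1 and 4.1 in the combination. The value 1 is the floor of the table, so that tumors 1251 and 1270 had no counted molecules above it, tumor 1539 had 5 counts, and the ADU-S100 tumors had 137, 21 and 60. The fitted difference of -5.37 (SE 1.59) depends on the pseudocount because of the floor, and was -3.39 with a pseudocount of 10. Ccl6 was also at the floor in Vehicle tumor 1269, so that the 3 tumors of number series 12 were the 3 at the floor for it. The Ccl6 difference was -3.12 with the number series as a block and -4.47 within series 15. Whether the series is the cause was not tested.

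Aire, the transcription factor of self-antigen expression in thymus, was at 99.7, 200 and 234 with ADU-S100 and 34, 19.8 and 45.1 in the combination, a difference of -2.38 (SE 0.74). Il24, an interleukin-10 family cytokine, was at 62.7, 173 and 37.1 against 29.2, 9.07 and 13.1, and Il11 at 42.7, 25.5 and 18.5 against 4.86, 6.6 and 6.56. Gpr44, the prostaglandin D2 receptor, was at 45.6, 39.3 and 30 against 10.5, 9.89 and 7.38, which before scaling was 16, 20 and 21 counts against 13, 12 and 9. Interleukins as a list had 6 higher and 17 lower of 23, with 1 passing as higher (Il12b) and 6 as lower (Il24, Il11, Il19, Il5, Lif and Il7), and a median of -0.82. Without tumor 1506, 2 passed as lower and the median was -0.30. Of these Il5 shows how near to the lowest genes some were, with 11, 8 and 13 counts against 10, 6 and 10. The platelet chemokine Ppbp at -2.02 (SE 0.81) was the 1 of 17 neutrophil genes to pass, and its counts were 60, 32 and 36 against 32, 22 and 19. It did not pass without tumor 1506.

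Of 21 fibroblast and matrix genes, 7 had higher and 14 lower values, 0 passed as higher and 2 as lower (Col1a1 and Plaur), and the median was -0.51. Without tumor 1506 neither passed and the median was -0.38. It was -0.18 within number series 15 and -0.18 with the log2 scaling factor as a covariate. Their summed normalized count was 62218 to 82653 in the ADU-S100 tumors and 38396 to 51289 in the combination tumors. Of 18 endothelial and angiogenesis genes, 1 had a higher value (Vcam1, 1.11, SE 0.61) and 17 lower, none passed in either direction, and the median was -0.78. Pecam1, the endothelial antigen CD31, was at 1985, 389 and 507 against 388, 387 and 468, so that tumor 1506 stood alone, and the list median was -0.12 without that tumor and 0.67 with the log2 scaling factor as a covariate.

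Epithelial and tumor cell genes had 5 higher and 7 lower of 12, none passing, and a median of -0.09, or 0.11 with median scaling. Their summed normalized count was 174376 to 310286 in the ADU-S100 tumors and 310803 to 423006 in the combination tumors, which did not overlap by a narrow margin, and Lcn2, at 113218 to 217847 against 216831 to 312652, was its largest member. Epcam, an epithelial surface antigen, was at 6355, 5759 and 11541 with ADU-S100 and 12183, 14887 and 11669 in the combination, without overlap by a narrow margin, and Cdh1, E-cadherin, was at 5204, 5988 and 7352 against 5670, 4836 and 5830. Both markers were abundant in all 6 tumors, and the keratins are not among the genes in the table. Whether the share of tumor, stromal and immune cells in the pieces has a part in the results was not tested. The genes with the highest mean values, Lcn2 (0.83, SE 0.79) and Spp1 (0.84, SE 0.97), did not pass, and both differences turned negative with the log2 scaling factor as a covariate (-0.31 and -0.62).

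**Figure D5:**
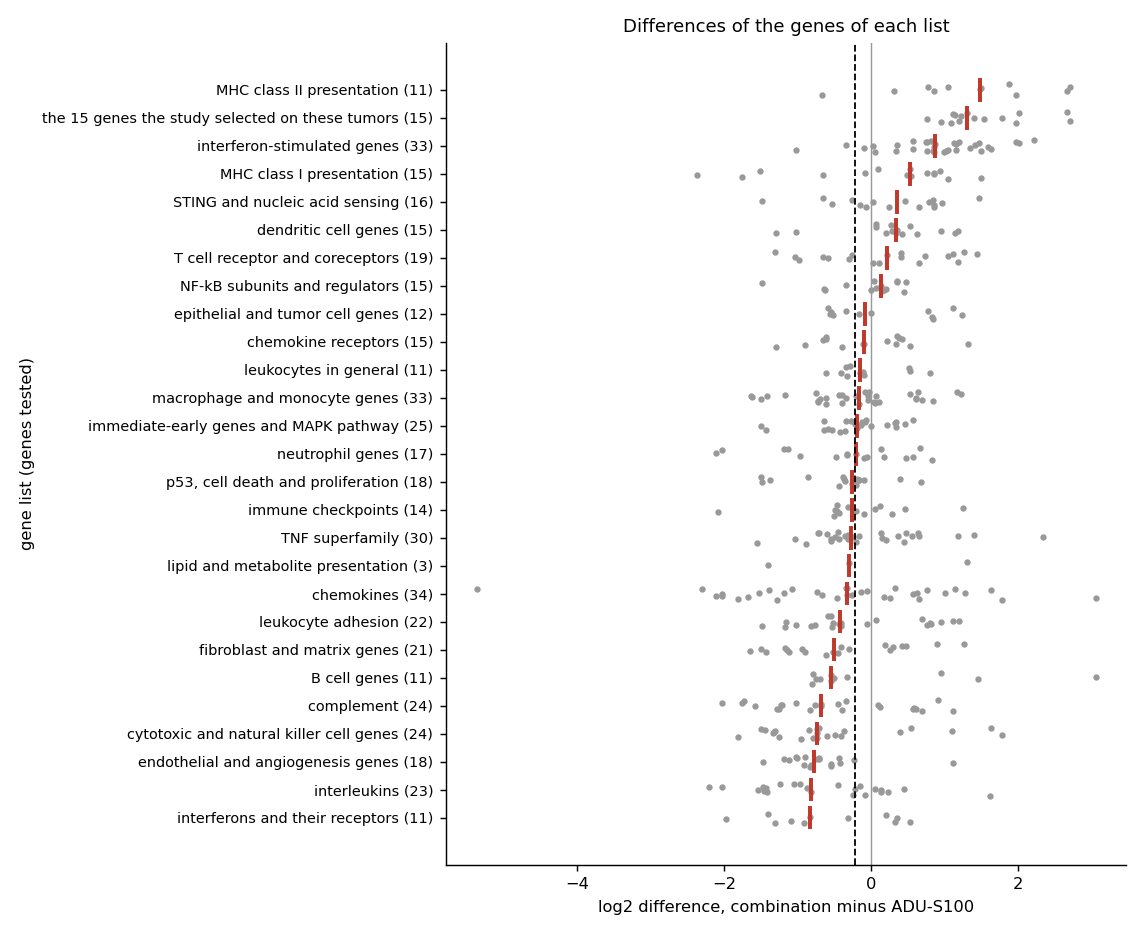
Difference combination minus ADU-S100 on the log2(normalized count + 1) scale of the tested members of each gene list, where points are genes, red ticks are list medians and the dashed line is the median of all 689 genes. Class II presentation has the highest median of the pathway and cell type lists, at 1.48 against -0.22 over all genes.

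Of 24 complement genes, 8 had higher and 16 lower values with a median of -0.68 that was -0.24 without tumor 1506 and 0.54 with the log2 scaling factor as a covariate, and 2 passed as lower, C3ar1 and C9, the last with 12, 15 and 10 counts against 7, 8 and 9. Without tumor 1506, 0 passed as lower and 2 as higher. Of 11 B cell genes, 3 had higher values and Cxcl13 was the 1 that passed, with Blnk, a B cell adaptor, at 1.46 (SE 0.72). The B cell median of -0.54 was 0.02 without tumor 1506, with 5 higher and 5 lower of 10. Leukocyte adhesion genes had 8 higher and 14 lower of 22, with Itgal and Itgax passing as higher. Their median of -0.43 was -0.10 without tumor 1506 and 0.61 with the log2 scaling factor as a covariate. Of 14 immune checkpoint genes, 5 had higher and 9 lower values and none passed, with Pdcd1 at 1.25 (SE 0.67) and Ido1 at -2.08 (SE 1.97). The checkpoint median of -0.26 was -0.01 without tumor 1506 and 0.71 with the log2 scaling factor as a covariate. The p53, cell death and proliferation list had 2 higher and 16 lower of 18 with none passing, and Birc5, an inhibitor of cell death, was its lowest member at -1.50 (SE 0.75). The median of that list was -0.26, near the -0.22 over all genes, and -0.05 with median scaling. Of 25 immediate-early and MAPK genes, 7 had higher and 18 lower values, and Egr2, an immediate-early transcription factor, was the 1 that passed, at 142, 147 and 210 against 33.2, 53.6 and 106, and it did not pass without tumor 1506.

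The study selected 15 genes on these same tumors, so that their direction is no independent evidence. All 15 had higher values in the combination, 11 passed the unadjusted threshold and 0 the adjusted one, the groups did not overlap for 14, and the median was 1.31. They include Lbp, the lipopolysaccharide-binding protein, at 3429, 2450 and 8740 with ADU-S100 against 12116, 14991 and 9722, where tumor 1513 came close to tumor 1539. The 4 that did not pass were Cfb at 1.11 (SE 0.54), Slamf7 at 1.09 (SE 0.53), St6gal1 at 0.95 (SE 0.46) and Selplg at 0.75 (SE 0.39).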

How the data were processed

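The authors deposited 1 table of normalized signal values for 750 genes in 12 tumors. Per their methods, nSolver normalized the counts to positive controls and housekeeping genes. All values above the floor of 1 were whole multiples of 1 step a tumor, within 0.01. The step was taken as 1 count, which its spacing gives but which in 7 of 12 columns no gene at 1 count bears out, so the counts before scaling serve as description only. Columns of no sample numbered 0. Genes that reached 20 in 3 or more of the 12 tumors entered limma 3.58.1 (R 4.3.3) on log2(value + 1), with all 4 groups sharing the spread, a 2-sided moderated test and Benjamini-Hochberg adjustment over 689 genes. p-values measure the spread between tumors of a group. That spread also rests on the Vehicle and Olaparib tumors. Without Olaparib tumor 1517, the shallowest of the 12, 40 genes were higher and 58 lower at the unadjusted threshold, against 31 and 32. Without Olaparib tumor 1521 these were 41 and 65, without 1510 33 and 31, and with the 2 groups only 52 and 105. Each fit without a Vehicle tumor gave 30 or 31 higher and 29 to 33 lower.

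On simulated data of 689 genes with 200 changed in this comparison, 3.5% of log2 changes of 1 and 59.5% of log2 changes of 2 were recovered, with 5 of 12 and 5 of 124 calls false. The named genes were the 12 with the smallest p among those higher and among those lower, the 10 such lower genes with at least 100 mean counts, and for each of 27 lists the 2 highest, the 2 lowest and any with an unadjusted p under 0.05, plus the 5 genes with the highest values and the study's 15. Cell type markers (Ptprc, Cd8a, Csf1r, Epcam, Cdh1 and Pecam1) were also given, and Ciita, Ctss, H2-DMb1, H2-Eb1, Tmem173, Irgm2, Il2ra and Cklf fall outside this rule and were named after their values were seen. The comparison and the lists were chosen with earlier results of these data known. Symbols in the table were matched to RefSeq, 736 of 750 as current and 8 as older names. The comparison shares its tumors with other contrasts of the study. The values of 1 gene are not reported here.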

Additional observations from a re-analysis of the deposited data

How the results depend on the processing

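The main values were 0 genes at an adjusted p of 0.05, 31 higher and 32 lower at an unadjusted p of 0.05, 72 higher and 144 lower without overlap, 13 lower genes of at least 100 counts, and a median of -0.22. H2-Aa was the 1 gene called with a pseudocount of 10, a filter at 50, median scaling, quantile normalization, an intensity trend or without ADU-S100 tumor 1506 (1 each). Counts of higher, lower and well-counted lower genes were 49, 58 and 24 with median scaling (112 higher without overlap), 56, 53 and 31 with quantile normalization (114), 52, 105 and 47 with the 2 groups only, and 35, 87 and 46 by the methods' t-test, of which 0 held after Benjamini-Hochberg. With the number series as a block they were 9, 2 and 0, within series 15, where tumor 1539 stands alone and is assumed to vary like the other groups, 4, 6 and 2 (130 higher and 233 lower without overlap), and with the log2 scaling factor as a covariate 86, 11 and 6 (median 0.30), where Lcn2 turned to -0.31 and Spp1 to -0.62. Leaving out 1 tumor at a time gave 13 (without 1251) to 67 (without 1506) higher, 9 (without 1506) to 65 (without Olaparib tumor 1521) lower, 3 (without 1270) to 26 (without 1521) well-counted lower, 0 to 1 adjusted, 72 to 185 higher and 132 to 226 lower without overlap. Higher and lower numbered 15 and 14 without 1512, 18 and 40 without 1513, 13 and 20 without 1251, 14 and 12 without 1270, 20 and 19 without 1539, and 40 and 58 without Olaparib tumor 1517. An alternative chosen after seeing the data, median scaling without 1506, gave 49 higher, 43 lower, 22 well-counted lower and 162 higher without overlap. The cause was not tested. The signs of the 31 higher and 32 lower genes were kept in every setting in which they were tested. No paired analysis was possible because the replicate numbers are tumor numbers that no 2 groups share. The planned edgeR and DESeq2 tests were not run because the counts inferred from the scaled values could not be checked against a gene at 1 count in 7 of the 12 columns. Genes under 20 mean counts numbered 85 of 689, and the ADU-S100 tumors held 372390 to 683982 counts in all.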
